A study of Arabidopsis thaliana with 8 samples.

Results

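The genes described here are an ethylene synthesis gene and a pair of ethylene receptor genes of Arabidopsis: ACO1 (AT2G19590), ETR2 (AT3G23150) and ERS1 (AT2G40940). They were chosen by name, with earlier results of these arrays known, and are 3 of the 13835 genes to which a probe set could be assigned, with 1 probe set each. Whole seedlings of 7 d were profiled with Affymetrix ATH1 arrays, 8 in all and 2 in each of 4 groups: OE-HRA1 and Col-0, each after 2 h of hypoxia or 2 h in air. OE-HRA1 seedlings overexpressed HRA1, a hypoxia-induced trihelix transcription factor gene, as a FLAG-tagged transgene under a cauliflower mosaic virus promoter that is active in most tissues, in the Col-0 ecotype, and Col-0 was the wild type. Each OE-HRA1 group held 1 array of line #1 and 1 of line #2, so its spread is that between transgenic lines, while the Col-0 arrays were labelled as replicates 1 and 2. All seedlings grew on upright plates of sucrose medium. For hypoxia, argon displaced the air of the chamber under dim light, whereas the air groups were kept in chambers open to the room. Dim light is stated only for the hypoxia treatment, so oxygen and light cannot be told apart in the hypoxia comparisons.

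Ethylene is a gaseous hormone made from S-adenosylmethionine. ACC synthases form its precursor ACC, and ACC oxidases such as ACO1 turn ACC into ethylene in a reaction that consumes oxygen. The receptors sit in the endoplasmic reticulum membrane and act in reverse: without ethylene they keep the kinase CTR1 active, which silences EIN2 and the transcription factors EIN3 and EIL1, and ethylene binding ends this repression. ERS1 belongs with ETR1 to the first receptor subfamily, which keeps a full histidine kinase domain, and ETR2 belongs with ERS2 and EIN4 to the second, in which that domain is degenerate. Transcripts of ETR2, ERS1 and ERS2 are known to rise when seedlings are given ethylene. Flooded or oxygen-starved plants trap or make ethylene, and the hormone is one of the cues of the submergence response.

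The arrays of a group correlated at 0.994 to 0.997, with a median absolute difference between them of 0.0900 to 0.122 log2 units. HRA1 read 12.19 and 12.02 log2 units on the OE-HRA1 hypoxia arrays, against 11.74 and 12.10 on those of Col-0. With the plants in air, OE-HRA1 arrays gave 12.98 and 13.09, against 7.20 and 7.00 on Col-0 arrays. The array signal of the genotypes was thus far apart in air and overlapped under hypoxia. This overlap does not show equal HRA1 levels. By quantitative PCR of hypoxic seedlings, the paper reports more total HRA1 transcript in both lines than in the wild type, but less endogenous transcript. How the probe set reads transgene and endogenous transcripts was not tested. ADH1, the alcohol dehydrogenase gene used as a hypoxia marker, was higher under hypoxia by a signal log2 ratio (SLR, the difference of group means on the log2 scale) of 2.33 in OE-HRA1 and 4.37 in Col-0. Both Col-0 hypoxia arrays carry the air treatment in their source field and hypoxia in every other label, and were treated as hypoxia arrays here. The leaf marker RCA (14.55 to 14.59 log2 units) and the root marker PYK10 (13.54 to 14.28) were high on every array, while the root hair markers EXPA7 and COBL9 read 5.99 to 6.65 and 6.95 to 7.56 on the hypoxia arrays, against 7.27 to 8.16 and 7.89 to 8.37 on the arrays in air. Relative to Col-0, the seed storage gene CRU3 was higher in OE-HRA1, by an SLR of 3.13 under hypoxia and 2.01 in air, and the oil body gene OLEO1 by 1.69 under hypoxia. Changes were called where |SLR| exceeded 1 and the p-value, adjusted over all 22637 tested probe sets, was under 0.01.

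ACO1 was strongly raised by hypoxia in Col-0 and only weakly so in OE-HRA1. Under hypoxia it read 8.09 and 8.29 log2 units in OE-HRA1 (lines #1 and #2), against 10.24 and 10.10 in Col-0 (replicates 1 and 2). In air OE-HRA1 arrays gave 7.41 and 7.17, against 7.49 and 7.19 on Col-0 arrays. The genotypes did not overlap under hypoxia, with both OE-HRA1 arrays low, whereas in air they covered nearly the same range. Group means were 8.19 ± 0.14 in OE-HRA1 under hypoxia, 7.29 ± 0.17 in OE-HRA1 in air, 10.17 ± 0.10 in Col-0 under hypoxia and 7.34 ± 0.21 in Col-0 in air (SD, n = 2 each). From highest to lowest the groups thus ran Col-0 under hypoxia, OE-HRA1 under hypoxia, Col-0 in air and OE-HRA1 in air, and the last 2 did not differ beyond their spread.

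Hypoxia raised ACO1 in Col-0 by an SLR of 2.83 (SE 0.13, 7.12-fold, adjusted p = 6.73e-06). This was the 68th highest of 22637 ratios in a comparison that called 2.02% of probe sets as higher. In OE-HRA1 the SLR was 0.90 (1.87-fold, 95% interval 0.59 to 1.21, adjusted p = 0.00263), which passed the adjusted p but not the SLR threshold. On the log2 scale that is 31.8% of the change in Col-0. The change from air to hypoxia was 0.67 in line #1 and 1.12 in line #2. Because these are whole seedlings, fewer cells of a type that express a gene and less RNA per cell cannot be told apart, here or in any of the values that follow.

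Set directly against Col-0, the ACO1 signal of hypoxic OE-HRA1 seedlings was 3.94-fold lower (SLR -1.98, SE 0.13, adjusted p = 0.000254), the 31st lowest ratio of a comparison in which 0.627% of probe sets were called lower. In air the SLR was -0.05, with a 95% interval of -0.36 to 0.26 (adjusted p = 0.924). The genotype by hypoxia interaction, which is the hypoxia SLR in OE-HRA1 minus that in Col-0, was -1.93 (SE 0.19, 95% interval -2.37 to -1.50, adjusted p = 0.00621). It was called as lower, as were 0.163% of probe sets, and ranked 24th from the lowest. The call is close to the threshold. A replicate block within each genotype, which pairs the arrays of each line and those of Col-0, kept it (adjusted p = 0.00227). With the transgenic line as the only block the adjusted p is 0.0196. Leaving out any single array or either line also ended it, at SLRs of -2.16 to -1.71 (adjusted p = 0.0110 to 0.182). The genotype difference under hypoxia stayed called without any single array and was lost without either line (adjusted p = 0.0140 and 0.0145). The response to hypoxia in Col-0, the genotype difference under hypoxia and the interaction share the Col-0 hypoxia arrays and are not independent of each other.

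**Figure D1:**
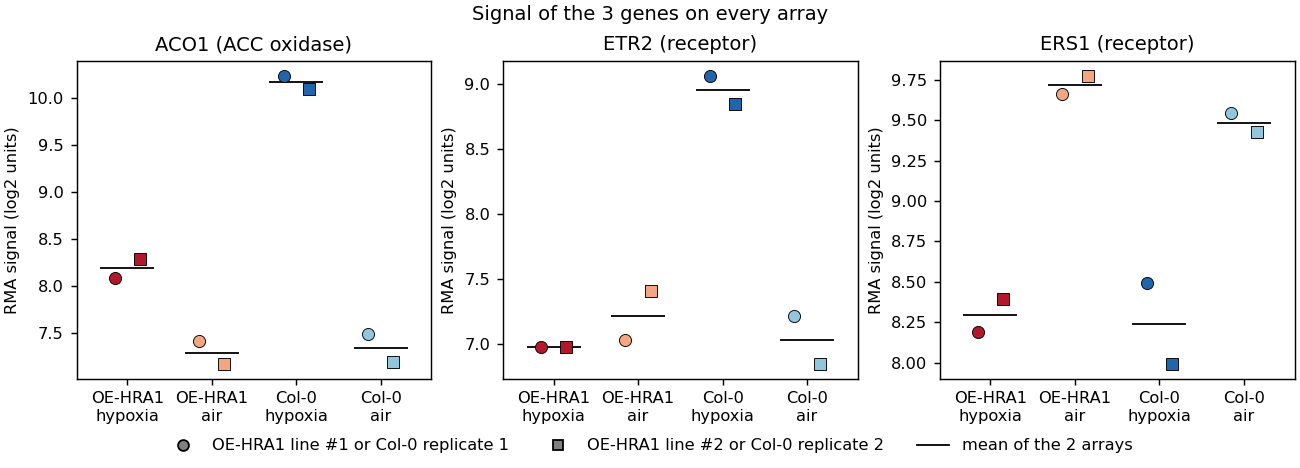
RMA signal in log2 units (y axis, a separate range in each panel) of ACO1, ETR2 and ERS1 on every array, by group (x axis); circles are OE-HRA1 line #1 or Col-0 replicate 1, squares are line #2 or replicate 2, and lines are means of 2 arrays. ACO1 and ETR2 stand highest on both Col-0 hypoxia arrays (10.24 and 10.10, 9.07 and 8.85), whereas ERS1 stands lower on all 4 hypoxia arrays than on any array in air.

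The receptor gene ETR2 was raised by hypoxia in Col-0 and showed no such rise in OE-HRA1. It read 6.98 on both OE-HRA1 hypoxia arrays, against 9.07 and 8.85 log2 units in Col-0 under hypoxia. In air OE-HRA1 arrays gave 7.03 and 7.41, against 7.22 and 6.85 on Col-0 arrays. Only the Col-0 hypoxia arrays stood apart, and the other 6 lay within 6.85 to 7.41. Group means were 6.98 ± 0.0031 in OE-HRA1 under hypoxia, 7.22 ± 0.27 in OE-HRA1 in air, 8.96 ± 0.16 in Col-0 under hypoxia and 7.03 ± 0.26 in Col-0 in air (SD, n = 2 each). Below Col-0 under hypoxia the order was OE-HRA1 in air, Col-0 in air and OE-HRA1 under hypoxia, and no neighbours among these 3 differed beyond their spread.

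In Col-0 the hypoxia SLR of ETR2 was 1.93 (SE 0.16, 3.80-fold, adjusted p = 0.000140), the 171st highest. In OE-HRA1 it was -0.24 (95% interval -0.60 to 0.13, adjusted p = 0.349), with a change of -0.05 in line #1 and -0.43 in line #2. The interval leaves room for a rise of at most 0.13 log2 units, far under the Col-0 response. Under hypoxia ETR2 was 3.94-fold lower in OE-HRA1 than in Col-0 (SLR -1.98, SE 0.16, adjusted p = 0.000611), and in air the SLR was 0.19 (95% interval -0.18 to 0.55, adjusted p = 0.680). The hypoxia difference between genotypes was no longer called without the OE-HRA1 hypoxia array of line #2 (adjusted p = 0.0117) or without line #1 or line #2 altogether (0.0176 and 0.0251).

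The interaction of ETR2 was -2.16 (SE 0.22, 95% interval -2.68 to -1.65, adjusted p = 0.00824), called as lower and 14th from the lowest of all probe sets. As for ACO1, it passed the threshold narrowly. The adjusted p was 0.00114 with a replicate block within each genotype and 0.0169 with the transgenic line as the only block. No fit without an array or a line called it, although the SLR stayed between -2.35 and -1.97.

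The receptor gene ERS1 fell under hypoxia in both genotypes. It read 8.19 and 8.40 log2 units in OE-HRA1 under hypoxia, against 9.66 and 9.78 in OE-HRA1 in air. In Col-0 it read 8.49 and 7.99 under hypoxia, against 9.55 and 9.43 in air. All 4 hypoxia arrays lay below all 4 arrays in air, and under hypoxia the genotypes overlapped. Group means were 8.29 ± 0.14 in OE-HRA1 under hypoxia, 9.72 ± 0.083 in OE-HRA1 in air, 8.24 ± 0.36 in Col-0 under hypoxia and 9.49 ± 0.084 in Col-0 in air (SD, n = 2 each). OE-HRA1 in air was thus highest, followed by Col-0 in air, OE-HRA1 under hypoxia and Col-0 under hypoxia; the arrays in air did not overlap between genotypes, but their difference did not pass the test.

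The hypoxia SLR of ERS1 was -1.43 in OE-HRA1 (SE 0.16, 2.69-fold lower, adjusted p = 0.000641), where 1.12% of probe sets were called lower, and -1.24 in Col-0 (SE 0.16, 2.37-fold lower, adjusted p = 0.00131), where 0.835% were. It was the 66th lowest ratio in OE-HRA1 and the 86th lowest in Col-0. Lines #1 and #2 changed by -1.47 and -1.38. Between genotypes no difference was called: the SLR of OE-HRA1 against Col-0 was 0.05 under hypoxia (95% interval -0.31 to 0.42, adjusted p = 0.874) and 0.23 in air (95% interval -0.13 to 0.60, adjusted p = 0.570). The interaction was -0.18 (95% interval -0.70 to 0.33, adjusted p = 0.966), so effects of genotype within that interval remain possible. The fall in Col-0 is the less firm of the 2 calls. Without the second Col-0 hypoxia array the SLR was -0.99, and without the first Col-0 array in air the adjusted p was 0.0125. Leaving out either OE-HRA1 line also ended this call, but it left the Col-0 SLR at -1.24. In that fit only the Col-0 arrays give the spread, so it is no separate check of the fall in Col-0. The call in OE-HRA1 was lost as well, with 1 array left in each OE-HRA1 group.

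Root markers moved with ERS1. Of 5 root markers, 3 had an assigned probe set, and their mean signal was 9.14 to 9.27 log2 units in OE-HRA1 under hypoxia, against 9.92 to 10.17 in OE-HRA1 in air, and 8.96 to 9.14 in Col-0 under hypoxia, against 9.82 in Col-0 in air. The root hair expansin gene EXPA7 was lower under hypoxia by an SLR of -1.33 in OE-HRA1 and -1.17 in Col-0, both called. COBL9, needed for root hair growth, had SLRs of -0.84 and -0.86, and PYK10, a root beta-glucosidase, of -0.36 and -0.28, none called. The part of these markers in the fall of ERS1 was not tested. The seed markers, of which 2 of 4 had a probe set, moved with genotype, at a mean of 9.76 to 9.90 log2 units in OE-HRA1 under hypoxia, against 7.35 to 7.50 in Col-0 under hypoxia, and 9.08 to 9.31 in OE-HRA1 in air, against 7.36 to 8.06 in Col-0 in air. Their part in the lower ACO1 and ETR2 signal of OE-HRA1 under hypoxia was not tested.

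**Figure D2:**
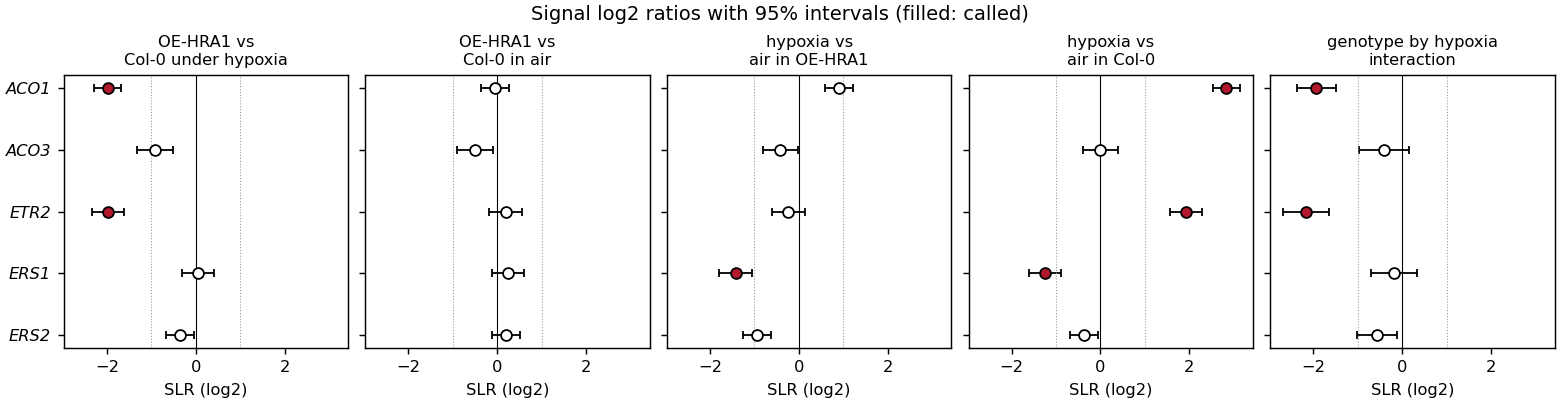
SLR (x axis, log2 units) with its 95% interval for the ACC oxidase genes ACO1 and ACO3 and the receptor genes ETR2, ERS1 and ERS2 (rows) in the 5 comparisons (panels); filled points were called and dotted lines mark an SLR of -1 and 1. ETR2 and ERS1 lie on opposite sides of 0 in Col-0 (1.93 and -1.24) and on the same side in OE-HRA1 (-0.24 and -1.43).

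To set the receptors against each other, the ERS1 value was subtracted from the ETR2 value within each array. Probe sets differ in sensitivity, so only changes of this difference are read and not its level. It was -1.21 and -1.42 in OE-HRA1 under hypoxia, against -2.63 and -2.37 in OE-HRA1 in air, and 0.57 and 0.86 in Col-0 under hypoxia, against -2.33 and -2.58 in Col-0 in air. The difference was thus greater on every hypoxia array than on any array in air, and on the hypoxia arrays it was greater in Col-0 than in OE-HRA1.

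The balance moved toward ETR2 under hypoxia by 1.19 in OE-HRA1 and by 3.17 in Col-0, a mean over both genotypes of 2.18 (exact two-sided permutation test within genotype, p = 0.0556, the smallest that the 36 arrangements allow). In OE-HRA1 this shift came from the fall of ERS1, with ETR2 at -0.24, and in Col-0 both genes moved. OE-HRA1 minus Col-0 was -2.03 under hypoxia and -0.05 in air, a mean of -1.04 (exact two-sided permutation test within treatment, p = 0.111). Neither test can pass 0.05 in this design. The pair was also chosen with its opposite hypoxia responses in these same arrays known, so both tests only describe it.

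**Figure D3:**
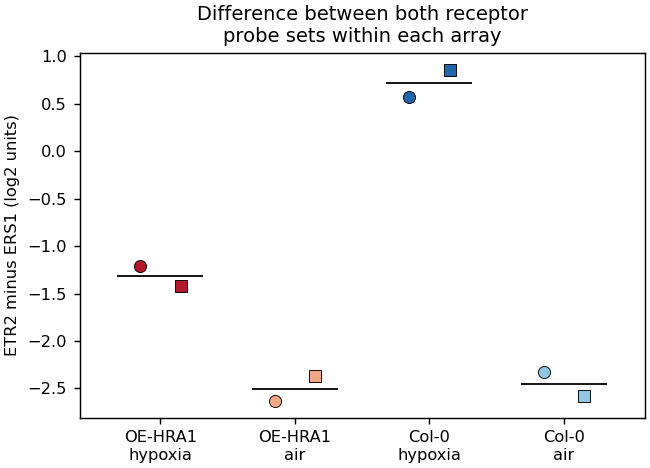
Difference between the ETR2 and ERS1 signals within each array (y axis, log2 units) by group (x axis); circles and squares are line or replicate 1 and 2, and lines are means of 2 arrays. The Col-0 hypoxia arrays are the only ones above 0 (0.57 and 0.86), a level that depends on the probe sets, and the OE-HRA1 hypoxia arrays (-1.21 and -1.42) lie between them and the arrays in air.

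Of the other receptors, only ERS2 had an assigned probe set, and ETR1 and EIN4 were not analysed here. ERS2, of the same subfamily as ETR2, read 6.40 and 6.06 log2 units in OE-HRA1 under hypoxia, against 7.08 and 7.24 in OE-HRA1 in air. In Col-0 it read 6.50 and 6.68 under hypoxia, against 7.06 and 6.84 in air. Each genotype's hypoxia arrays were lower than its arrays in air, by an SLR of -0.93 in OE-HRA1 (adjusted p = 0.00246) and -0.36 in Col-0 (adjusted p = 0.117), neither called, and the interaction was -0.57 (adjusted p = 0.677).

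Of the other ACC oxidases, only ACO3 was analysed here. ACO3 read 6.97 and 6.98 log2 units in OE-HRA1 under hypoxia, against 7.85 and 7.93 in Col-0 under hypoxia. In air OE-HRA1 arrays gave 7.19 and 7.59, against 7.65 and 8.13 on Col-0 arrays. Its hypoxia SLR was -0.42 in OE-HRA1 (95% interval -0.81 to -0.02, adjusted p = 0.133) and -0.0038 in Col-0 (95% interval -0.40 to 0.39), where ACO1 had 2.83. It was lower on both OE-HRA1 hypoxia arrays than on both Col-0 hypoxia arrays, at an SLR of -0.91 that was not called (adjusted p = 0.0196).

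A list of 56 genes of ethylene synthesis, perception, signalling and response gave the context. Probe sets were assigned to 23 of them: 4 synthesis genes (2 of 9 ACC synthases and 2 of 5 ACC oxidases), 3 of 5 receptors, 6 signalling or receptor accessory genes and 10 of 16 targets. For 16 of the 23, ACO1, ETR2, ERS1 and ERS2 included, the assignment came only from the study's list of differentially expressed genes, which was drawn partly from these same arrays. Their counts therefore describe preselected genes, and the 7 named by the platform annotation are counted apart.

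Under hypoxia, 7 of the 23 were called higher and 3 lower in OE-HRA1, where 1.95% and 1.12% of all probe sets were, and 10 were called higher and 1 lower in Col-0, where 2.02% and 0.835% were. The median SLR was 0.61 in OE-HRA1 and 0.72 in Col-0, beside 0.01 and -0.01 over all tested probe sets. Among the 7 platform-named genes, 1 was called in each genotype, the organ growth gene ARL, and their median was 0.01 in OE-HRA1 and 0.02 in Col-0. The count in OE-HRA1 varied from 2 to 10 when an array or a line was left out.

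Most called genes were transcription factors that respond to ethylene, each assigned a probe set only through the study's list of differentially expressed genes. ERF2, ERF4 and ERF5, of the ethylene response factor family, were higher under hypoxia by SLRs of 1.41, 1.57 and 2.76 in OE-HRA1 and of 1.63, 2.06 and 2.66 in Col-0. The EIN3 target genes EDF2 and EDF4 were higher by 1.43 and 1.56 in OE-HRA1 and by 1.69 and 1.77 in Col-0. EDF1 was called in Col-0 (2.02) and had an SLR of 0.91 in OE-HRA1 (adjusted p = 0.00171), with an interaction of -1.12 that was not called (adjusted p = 0.0542). ERF5 rose in both genotypes, with an interaction of 0.10 (95% interval -0.25 to 0.46).

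EBF2 and ORA59 were called lower under hypoxia in OE-HRA1, as ERS1 was. EBF2, whose F-box protein removes EIN3, had SLRs of -1.13 in OE-HRA1, which was called, and -0.68 in Col-0. ORA59, a transcription factor of the jasmonate and ethylene defence response, had SLRs of -1.29 in OE-HRA1, also called, and -0.89 in Col-0. EIN2, the central transducer of the pathway, had SLRs of -0.90 in OE-HRA1 and -0.87 in Col-0, short of the SLR threshold (adjusted p = 0.00171 and 0.00218). The ACC synthase gene ACS6 was higher in OE-HRA1 (1.12, called), with 0.72 in Col-0, and ACS7 had 0.71 and 0.77, neither called. The interactions of EBF2, ORA59 and ACS6 were -0.45, -0.40 and 0.40, none called (limma adjusted p = 0.896, 0.944 and 0.938). No genotype difference in their response was thus called.

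Between genotypes under hypoxia, 0 of the 23 were called higher and 3 lower: ACO1, ETR2 and ARL. This comparison called 0.309% of all probe sets higher and 0.627% lower. Among the 7 platform-named genes, 0 were called higher and 1 lower, ARL. The median of the 23 was -0.04, beside 0.03 over all probe sets. Without an array or a line, 0 to 4 were called. ARL read 8.59 and 8.72 log2 units in OE-HRA1 under hypoxia, against 11.08 and 10.93 in Col-0 under hypoxia, and 7.42 and 7.76 in OE-HRA1 in air, against 8.82 and 8.16 in Col-0 in air. Its SLR was -2.35 under hypoxia (adjusted p = 0.000871) and -0.90 in air (adjusted p = 0.0848). Unlike ACO1 and ETR2, ARL was therefore lower on both OE-HRA1 arrays in air as well, and its interaction of -1.45 was not called (adjusted p = 0.149). Higher but not called were PDF1.2, a plant defensin gene (1.98, adjusted p = 0.0414), and ERF5 (0.91, adjusted p = 0.00329). Lower but not called were ACO3 (-0.91) and EDF1 (-0.87, adjusted p = 0.00649), among others. The Col-0 hypoxia arrays differed by 0.95 log2 units for PDF1.2.

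In air 1 of the 23 was called, the basic chitinase gene CHI-B (higher), in a comparison that called 0.0398% of probe sets higher and 0.0707% lower. It read 9.08 and 9.48 log2 units in OE-HRA1 in air, against 6.93 and 6.99 in Col-0 in air, an SLR of 2.32 (adjusted p = 0.00594). Without an array or a line, 0 to 1 of the 23 were called in air. Under hypoxia OE-HRA1 arrays gave 9.95 and 10.14, against 9.58 and 9.02 on Col-0 arrays. Unlike for ACO1 and ETR2, the genotypes were thus further apart in air than under hypoxia, where the SLR was 0.74 (not called). Hypoxia raised CHI-B by an SLR of 0.76 in OE-HRA1 (not called) and of 2.34 in Col-0 (called). Its interaction was -1.58 (adjusted p = 0.0895). Other SLRs in air were 1.87 for PDF1.2, whose Col-0 arrays in air differed by 1.51 log2 units, and 0.98 for ORA59, neither called. Of the 7 platform-named genes, 0 were called in air and 0 for the interaction. For the interaction, which called 0.00442% of all probe sets higher and 0.163% lower, 0 of the 23 were called higher and 2 lower, ACO1 and ETR2. With the transgenic line as the only block 0 were called, and with a replicate block within each genotype 3 were.

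**Figure D4:**
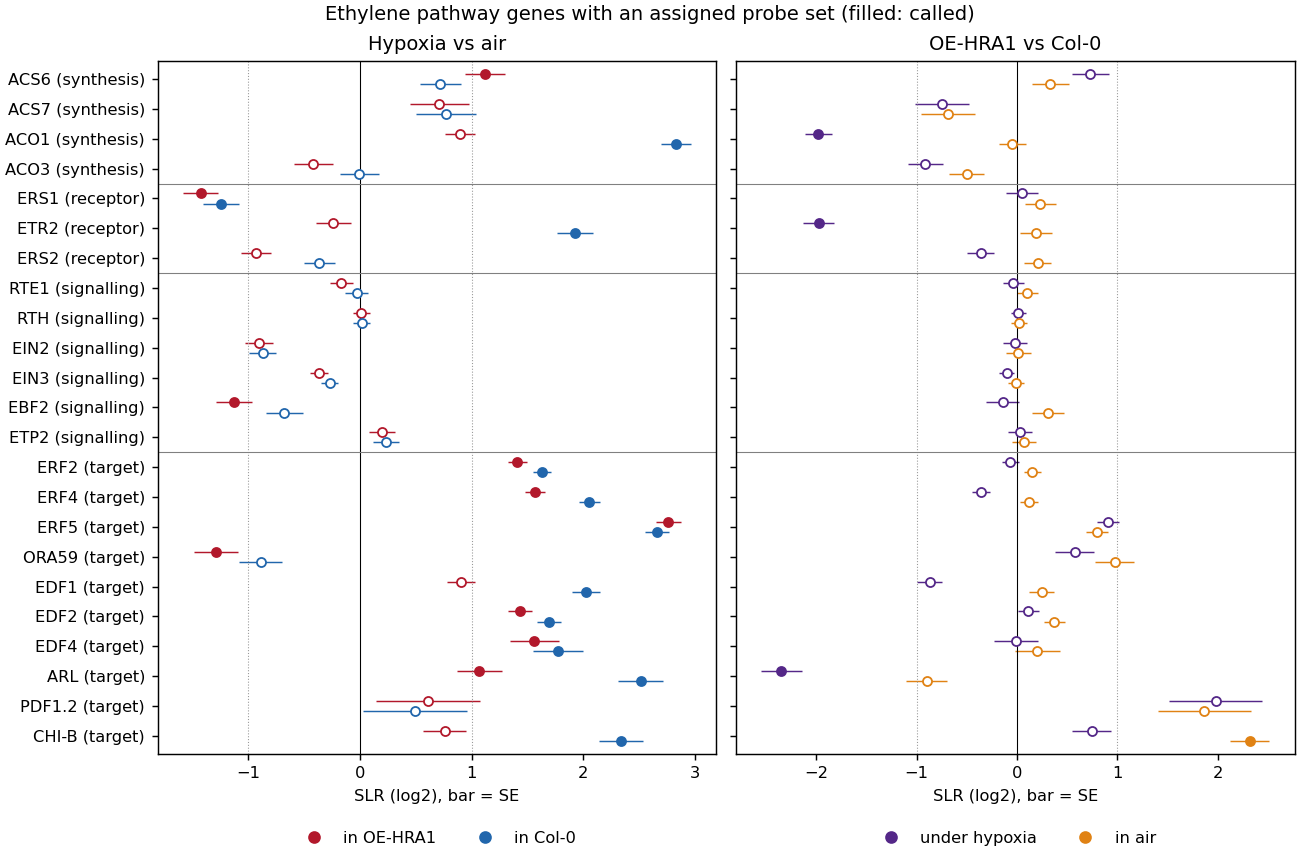
SLR (x axis, log2 units, bars are SE) of the 23 ethylene pathway genes with an assigned probe set (rows, by role), for hypoxia against air in OE-HRA1 and Col-0 (left panel) and for OE-HRA1 against Col-0, hypoxic or in air (right panel); filled points were called and dotted lines mark an SLR of -1 and 1. ACO1, ETR2 and ARL are the 3 genes called lower in OE-HRA1 under hypoxia (-1.98, -1.98 and -2.35), and ERS1 lies near 0 there (0.05).

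The probe sets most like each gene were found by the root-mean-square difference of log2 values over the 8 arrays, each probe set taken relative to its own mean, among 13966 probe sets with a single named gene outside the lists. For ACO1 these were AT5G44730 (0.132 log2 units), RBOHB (0.259), UKL3 (0.284) and MYBL2 (0.285), with hypoxia SLRs of 0.47 to 1.36 in OE-HRA1 and 2.19 to 2.65 in Col-0. For ETR2 they were AT4G02170 (0.188), AT2G47560 (0.221), CYP96A9 (0.224) and PDC2 (0.248), with hypoxia SLRs of -0.01 to 0.15 in OE-HRA1 and 1.89 to 2.18 in Col-0. PDC2 encodes a pyruvate decarboxylase of ethanol fermentation. For ERS1 they were CXE5 (0.0840), AT3G09580 (0.0903), GH9C1 (0.107) and AT2G47440 (0.135), with hypoxia SLRs of -1.55 to -1.26 in OE-HRA1 and -1.37 to -1.04 in Col-0. No gene was among the 4 closest of more than 1 of the 3. RBOHB, UKL3, MYBL2, CXE5 and CYP96A9 were named only by the study's list of differentially expressed genes, which was drawn partly from these same arrays. Probe sets without a single named gene could not enter. These are descriptions of arrays that the groups divide, and the choice rests on 2 arrays per group.

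**Figure D5:**
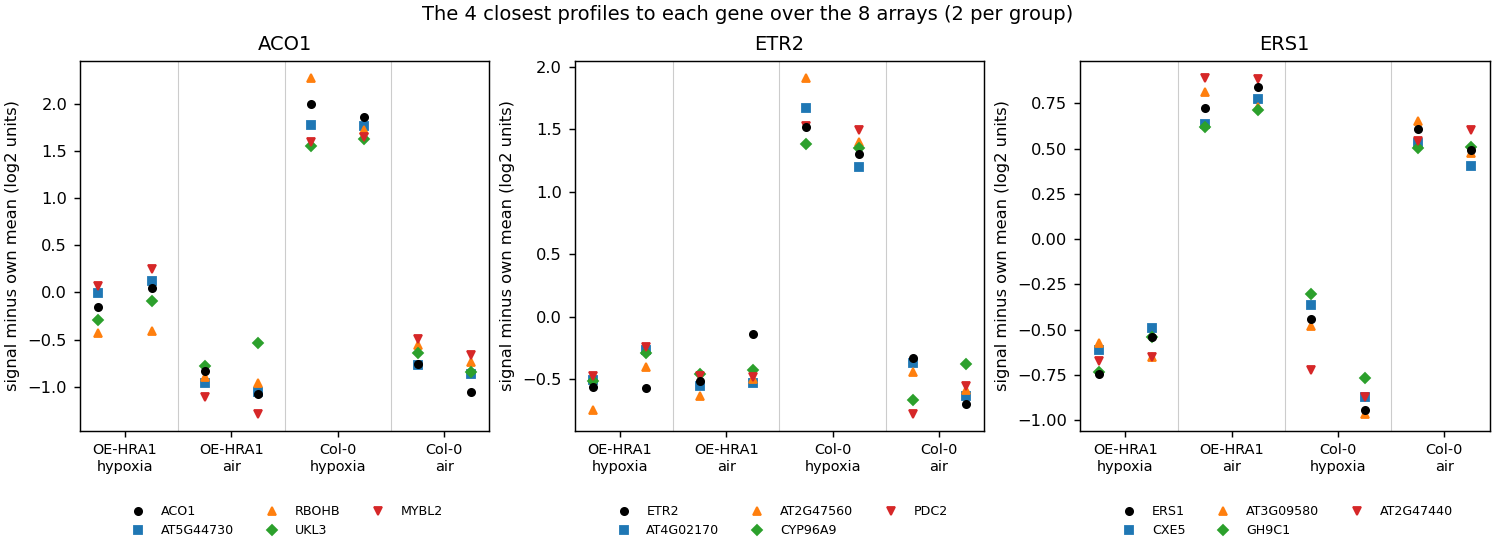
Signal minus its own mean over the 8 arrays (y axis, log2 units, a separate range in each panel) of ACO1, ETR2 and ERS1 (black circles) and the 4 probe sets closest to each (coloured symbols), for the 2 arrays of each group (x axis). The ACO1 set is intermediate in OE-HRA1 under hypoxia, the ETR2 set is high only in Col-0 under hypoxia, and the ERS1 set is low under hypoxia in both genotypes.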

How the data were processed

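Seedling RNA was hybridised to ATH1 arrays, and the authors made present calls with MAS5 and summarised probe sets with RMA, in 1 run with arrays of RAP2.12 overexpressors per their methods. No source says if the deposited table is from that run. The deposited values are log2 intensities and were used as given. The present-call filter needs the scans and was not repeated. After 64 control and 109 organelle probe sets were left out, 22637 were tested.

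Genes were assigned to 13415 probe sets by the platform table and to 574 by the study's supplementary list of differentially expressed genes, whose ratios and p-values were not used; 8648 had no single gene. The 3 genes, the lists and the tests were chosen with earlier results of these data known.

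The model in R 4.3.3 with limma 3.58.1 fitted 4 group means with 4 residual and 4.15 prior degrees of freedom. All tested probe sets of a comparison entered the Benjamini-Hochberg adjustment, and calls followed the methods' thresholds (|SLR| above 1, adjusted p under 0.01). The p-values measure the spread between these arrays, and 2 per group limit the precision. The code was tested on simulated data.

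Besides ACO1, ETR2 and ERS1, the text names other ACC oxidases and receptors, list members called in any comparison, up to 3 uncalled members with the largest ratios per comparison, check genes, tissue markers and the 4 closest profiles. The transgenic line pairs the OE-HRA1 arrays (their deviations from group means correlated at 0.15). Same-numbered Col-0 arrays correlated at 0.37, and across genotypes same-numbered arrays at -0.08 and -0.09; the labels do not say what the number stands for. Alternatives were the 60% of probe sets with the highest mean signal, trend and robust priors, quantile normalisation again, median centring, 3 blocks, only the groups compared, looser thresholds, and leaving out each array or line.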

Additional observations from a re-analysis of the deposited data

Results flagged for a closer look

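The interaction, which tests the difference in hypoxia response between genotypes, was called for ACO1 and ETR2 in the fit without a block. For ACO1 the SLR was 0.90 in OE-HRA1 and 2.83 in Col-0, an interaction of -1.93 (SE 0.19, limma adjusted p = 0.00621). For ETR2 the SLR was -0.24 in OE-HRA1 and 1.93 in Col-0, an interaction of -2.16 (SE 0.22, limma adjusted p = 0.00824). A replicate block within each genotype, which pairs the OE-HRA1 arrays by line and the Col-0 arrays by number, kept both calls. With the transgenic line as the only block neither was called (adjusted p = 0.0196 for ACO1 and 0.0169 for ETR2). Neither was called in any of the 10 fits without an array or a line. In each case both OE-HRA1 lines changed less than the Col-0 arrays did. With 2 arrays in a group, single arrays could not be examined for outlying values.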

How the results depend on the processing

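Over 312 values of ACO1, ETR2 and ERS1 under alternative settings, 266 kept their direction and their side of the threshold, 36 lost a call, 1 gained one and 9 changed sign, all of them differences that were not called. With OE-HRA1 arrays blocked by line, the replicate block that follows the transgenic lines, the interaction lost its call for ACO1 (-1.93, adjusted p = 0.0196) and ETR2 (-2.16, 0.0169), leaving 0 members of the ethylene list called. With a replicate block for all arrays, that of ETR2 lost its call (-2.16, 0.0158), leaving 1, as it did when quantiles were normalised again (-2.12, 0.0108), leaving 1. A replicate block within each genotype, which also pairs the OE-HRA1 arrays by line, kept both calls (0.00227 and 0.00114). No block changed another call of the 3 genes. With only the groups compared in the fit, which has fewer residual degrees of freedom, the fall of ERS1 in Col-0 lost its call (-1.24, 0.0139) and 0 list members were called in air. Without a minimum SLR, ACO1 in OE-HRA1 passed (0.90) and 5 list members were called between genotypes under hypoxia.

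Fits without an array or a line have 3 or 2 residual degrees of freedom. In them the interaction of ACO1 ran from -2.16 to -1.71 (adjusted p up to 0.182) and that of ETR2 from -2.35 to -1.97 (up to 0.307), never called. Under hypoxia, OE-HRA1 against Col-0 ran from -2.08 to -1.88 for ACO1, lost without either line (0.0140 and 0.0145), from -2.09 to -1.87 for ETR2, and from -0.20 to 0.30 for ERS1. ERS1 under hypoxia ran from -1.53 to -1.32 in OE-HRA1 and from -1.50 to -0.99 in Col-0, and its interaction from -0.43 to 0.070. In air, OE-HRA1 against Col-0 ran from -0.20 to 0.10 for ACO1 and from -0.0022 to 0.38 for ETR2. Members of the list called numbered 2 to 10 in OE-HRA1 under hypoxia, 0 to 4 between genotypes under hypoxia, 0 to 1 in air and 0 for the interaction. By Pearson's r in place of the root-mean-square difference, a measure added after the results were seen, 1 of the 4 closest probe sets stayed for ACO1 and 2 of 4 for ETR2 and ERS1. The cause of these changes was not tested.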
